A study of Caenorhabditis elegans with 6 samples.

Results

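The genes described here are 8 Caenorhabditis elegans genes of eggshell assembly, cbd-1, chs-1, perm-1, egg-1, egg-2, egg-3, cpg-1 and cpg-2, picked by sequence name from the deposited count table. All 8 were found among its 21951 genes. The nematode egg is enclosed after fertilization by a stack of extracellular layers built from material that the oocyte has stored or made ready. The outer vitelline layer is present first, a chitin layer forms beneath it, and a layer of chondroitin proteoglycans and a lipid-rich permeability barrier follow inside. A set of proteins at the oocyte surface and cortex ties sperm entry to the start of this process.

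The samples were 3 libraries from wild-type worms kept in 100 mM ethyl carbamate for 24 h and 3 from wild-type control worms. Ethyl carbamate, or urethane, is a carbamate ester found in fermented foods. RNA of whole gravid young adults was captured by poly(A) and sequenced, and the design text calls the replicates of each group biological. The libraries held 20176242 to 21258740 gene counts with ethyl carbamate and 19026133 to 22416213 in the controls. The control titles, and the column names of both groups, carry a prefix, EV, that no label explains. In whole animals, fewer oocytes and less RNA per oocyte cannot be told apart.

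The part of the libraries that comes from the germline was checked with markers. Levels are given as FPKM (fragments per kilobase of gene, scaled per library), as the authors deposited them. These values follow counts divided by the authors' size factor of each library, not by its total counts. The size factors were 1.04 to 1.12 with ethyl carbamate and 0.818 to 1.01 in controls. All 10 oocyte markers were detected, and their summed level was 2566 to 2612 FPKM with ethyl carbamate and 3567 to 3914 FPKM in controls. All 10 were lower with ethyl carbamate, with a median log2 fold change of −0.44, as were all 10 germ cell markers, with a median of −0.56. With scaling by library size alone, and with quantile normalization, 9 of 10 in each list were lower and none higher. Of all tested genes, 36.3% were lower and 40.0% higher. The markers of these lists had a log2 CPM (counts scaled to library size) of 6.74 to 10.7. At 6 to 8, 8 to 10 and above 10, 70.5%, 76.3% and 86.7% of all genes were lower, with medians of −0.25, −0.38 and −0.63. Both marker medians lay within this range. Whether these markers fell more than genes of like abundance was not tested. Early embryo markers were lower in 8 of 10 and higher in none, with a median of −0.83 and sums of 262 to 264 FPKM with ethyl carbamate and 342 to 350 FPKM in controls. With scaling by library size 7 of these were lower and 1 higher, with quantiles 8 of 9 were lower and 1 higher, and among genes with FPKM of at least 5 the median was −0.26 with 3 of 5 lower. Most of the summed embryo marker level came from pal-1, pie-1 and skn-1. Their means were 90.1, 80.9 and 71.9 FPKM with ethyl carbamate, against 127, 108 and 77.4 FPKM in controls. The embryo markers med-1, med-2 and hlh-27 were under 1 FPKM in all libraries, and hlh-27 was among those called lower. Of 11 sperm markers 9 were in the table, 6 of them under 1 FPKM in all libraries. The summed sperm marker level was 3.99 to 7.70 FPKM with ethyl carbamate and 1.89 to 4.58 FPKM in controls, and the 1 tested, msp-31, was higher (0.90) but not called with quantiles (0.10). Among markers of other tissues, 7 of 8 for body wall muscle, 5 of 6 for pharynx and 8 of 9 for neurons were higher and none lower. Under other settings 1 marker of each could be called lower: of muscle with DESeq2 and limma on log2 FPKM, of neurons with these and median-ratio scaling, and of pharynx with quantiles. Intestine (6 higher and 3 lower of 10), epidermis (4 and 2 of 7) and somatic gonad (3 and 1 of 7) were mixed. The part of these shifts in the results below was not tested.

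All 8 eggshell genes were lower with ethyl carbamate, by 1.13-fold to 1.91-fold. The fall was deepest for perm-1 and cbd-1, intermediate for egg-3, egg-2, chs-1 and egg-1, and least for cpg-1 and cpg-2. Calls are from edgeR's quasi-likelihood test with Benjamini-Hochberg adjustment over 14705 tested genes at a threshold of 0.05, on counts scaled by trimmed means (TMM). Of all tested genes, 36.3% were called lower and 76.3% were called in either direction, so that a call alone sets a gene little apart. The median log2 fold change was −0.58 over the 8 genes and 0.05 over all tested genes. For all 8 genes the FPKM values of the ethyl carbamate libraries lay below those of all controls, as they did in 39.9% of tested genes, with 78.8% separate in either direction. These FPKM values carry the authors' size factors, which were lower in the controls. The calls for cpg-1 and cpg-2 depended on the scaling. With libraries scaled by size alone 6 of the 8 were lower and none higher, against 23.2% of all tested genes lower. With quantile-normalized FPKM 6 were lower and 2, cpg-1 and cpg-2, were higher, against 44.1% of genes lower.

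**Figure D1:**
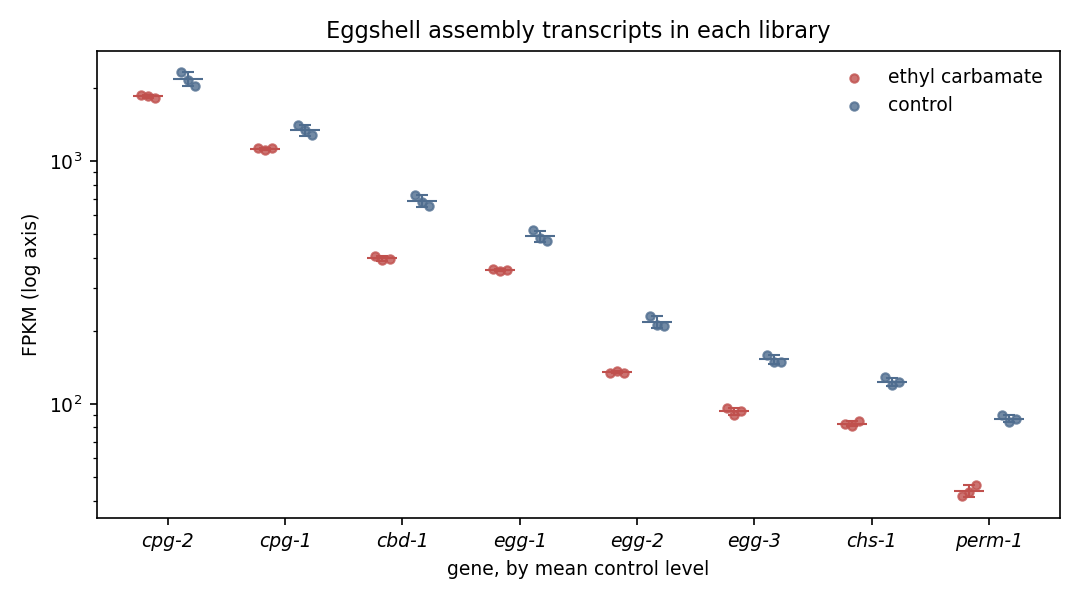
Deposited FPKM (log axis) of the 8 eggshell genes in each library, ordered by control level, with ethyl carbamate left and control right. Points are libraries, and the bar with whiskers is the mean ± SD of 3 libraries. The order from cpg-2 down to perm-1 is the same in both groups, and no ethyl carbamate point reaches a control point of the same gene.

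Of the 8 genes, perm-1, of the vitelline layer and permeability barrier, and cbd-1, of the vitelline layer, fell most. The gene perm-1 (T01H3.4) lies on chromosome II from 7880810 to 7882767 on the plus strand, has 6 exons in the Ensembl annotation and encodes 486 residues. Its product is a secreted protein without which the eggs become permeable. It had 41.9, 43.3 and 46.6 FPKM in the ethyl carbamate libraries, against 89.6, 84.1 and 87.0 FPKM in the controls. The groups lay far apart. On the log2 scale the difference was −0.93 ± 0.04 (SE; edgeR adjusted p = 6.27e-14), a 1.91-fold fall. Only 3.89% of all tested genes had a lower fold change.

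The gene cbd-1 (H02I12.1; chromosome IV, 11372989 to 11377600, plus strand, 10 exons, 1319 residues) encodes a protein with chitin-binding domains that is secreted around the oocyte and on which the vitelline layer is built. It had 406, 390 and 395 FPKM in the ethyl carbamate libraries, against 724, 680 and 651 FPKM in the controls. The lowest control was above the highest exposed library by more than the spread within either group. The difference of −0.73 ± 0.04 in log2 (SE; edgeR adjusted p = 3.69e-12) was a 1.66-fold fall.

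A ratio of FPKM within a library is unchanged when all its values are scaled by a single factor, though not by quantile normalization. The FPKM ratio of perm-1 to cbd-1 was 0.103, 0.111 and 0.118 with ethyl carbamate, against 0.124, 0.124 and 0.134 in controls. The groups did not overlap, and the mean log2 ratio differed by −0.20 (exact two-sided permutation test, p = 0.1, adjusted p = 0.133 over 4 pairs). With 3 libraries against 3 this test cannot give a p below 0.1, which holds for every exact test here.

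At the oocyte surface and cortex, egg-1, egg-2 and egg-3 fell by unequal amounts. The paralogs egg-1 (B0244.8; chromosome III, 5728178 to 5730394, plus strand, 5 exons, 551 residues) and egg-2 (R01H2.3; chromosome III, 7058518 to 7060597, minus strand, 5 exons, 548 residues) encode membrane proteins of the oocyte with LDL receptor repeats, which sperm need to enter. How the authors counted reads that match both genes is not stated in the labels or headers, so the split between them is uncertain. The gene egg-1 had 358, 352 and 357 FPKM with ethyl carbamate, against 518, 484 and 467 FPKM in controls. The fall of egg-1 was 1.33-fold, or −0.41 ± 0.04 in log2 (SE; edgeR adjusted p = 1.65e-08). The gene egg-2 stood at less than egg-1 in every library, with 134, 137 and 134 FPKM with ethyl carbamate, against 231, 212 and 209 FPKM in controls. The fall of egg-2 was 1.55-fold, or −0.63 ± 0.04 in log2 (SE; edgeR adjusted p = 1.11e-11). The ratio of egg-1 to egg-2 was therefore higher after exposure, at 2.67, 2.57 and 2.66 with ethyl carbamate and 2.24, 2.28 and 2.24 in controls. These ratios did not overlap (log2 difference 0.22; exact two-sided permutation test, p = 0.1, adjusted p = 0.133).

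The gene egg-3 (F44F4.2; chromosome II, 10882407 to 10884441, minus strand, 6 exons, 555 residues) encodes a protein related to tyrosine phosphatases that holds the kinase MBK-2 and the chitin synthase at the oocyte cortex until the egg is activated. It had 96.2, 90.1 and 93.5 FPKM with ethyl carbamate, against 160, 149 and 149 FPKM in controls, with no overlap. This was a 1.58-fold fall, −0.66 ± 0.04 in log2 (SE; edgeR adjusted p = 3.26e-12). Its span shares 20 bases with lurp-1 on the other strand (5.69 ± 0.959 FPKM with ethyl carbamate and 2.31 ± 0.417 FPKM in controls, SD, n = 3 each).

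The gene chs-1 (T25G3.2; chromosome I, 7554892 to 7559916, plus strand, 10 or 11 exons by transcript, 1322 residues) encodes the synthase that makes eggshell chitin. It had 82.3, 81.4 and 85.3 FPKM with ethyl carbamate, against 129, 120 and 123 FPKM in controls. The groups were separate and differed 1.44-fold, by −0.52 ± 0.04 in log2 (SE; edgeR adjusted p = 1.71e-10). At 80 bases it overlaps T25G3.3 on the same strand, which was also lower (log2 fold change −0.25, edgeR adjusted p = 8.71e-06), but not called with scaling by library size (−0.06) or with quantiles (−0.07). The ratio of egg-3 to chs-1 was 1.17, 1.11 and 1.10 with ethyl carbamate, against 1.24, 1.24 and 1.22 in controls, a log2 difference of −0.14 (exact two-sided permutation test, p = 0.1, adjusted p = 0.133).

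The proteoglycan genes cpg-1 and cpg-2 were the most abundant of the 8 and fell least, and of the 8 only they lost the call under some of the scalings and filters tried. Their products carry chondroitin chains and chitin-binding domains and fill the layer under the chitin. The gene cpg-2 (B0280.5; chromosome III, 7102086 to 7103992, minus strand, 5 exons, 524 residues) had 1867, 1850 and 1814 FPKM with ethyl carbamate, against 2325, 2146 and 2041 FPKM in controls. The gene cpg-1 (C07G2.1; chromosome III, 4489357 to 4491396, plus strand, 3 or 4 exons, 584 residues) had 1135, 1110 and 1126 FPKM with ethyl carbamate, against 1411, 1336 and 1276 FPKM in controls. On this scale the groups of both genes were separate. In log2, cpg-2 differed by −0.18 ± 0.05 (SE; edgeR adjusted p = 0.00142) and cpg-1 by −0.20 ± 0.04 (SE; edgeR adjusted p = 0.000268).

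In unscaled reads 6 of the 8 genes lay below the controls in every library (17.7% of tested genes), and cpg-1 and cpg-2 did not separate the groups. For cpg-2 the reads numbered 69743, 74224 and 71793 with ethyl carbamate, against 68042, 75769 and 74105 in controls. For cpg-1 they numbered 46417, 48760 and 48779 with ethyl carbamate, against 45212, 51637 and 50717 in controls. Together they took 0.576%, 0.579% and 0.576% of all gene counts with ethyl carbamate and 0.595%, 0.576% and 0.557% in controls, which overlap. All 8 genes together took 0.917%, 0.918% and 0.922% with ethyl carbamate and 1.07%, 1.04% and 1.02% in controls, which do not. Scaled by library size alone, which placed the median of all genes 0.19 higher on the log2 scale than TMM did, the log2 fold changes were 0.01 for cpg-2 and −0.0095 for cpg-1 (edgeR adjusted p = 0.777 for cpg-2 and 0.785 for cpg-1). On quantile-normalized FPKM both were higher, at 0.38 for cpg-2 and 0.24 for cpg-1 (limma adjusted p = 2.02e-05 for cpg-2 and 0.000531 for cpg-1). The other 6 genes were called lower under both. The ratio of cpg-1 to cpg-2 was 0.608, 0.600 and 0.621 with ethyl carbamate and 0.607, 0.623 and 0.625 in controls, with overlapping groups (log2 difference −0.02; exact two-sided permutation test, p = 0.3).

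**Figure D2:**
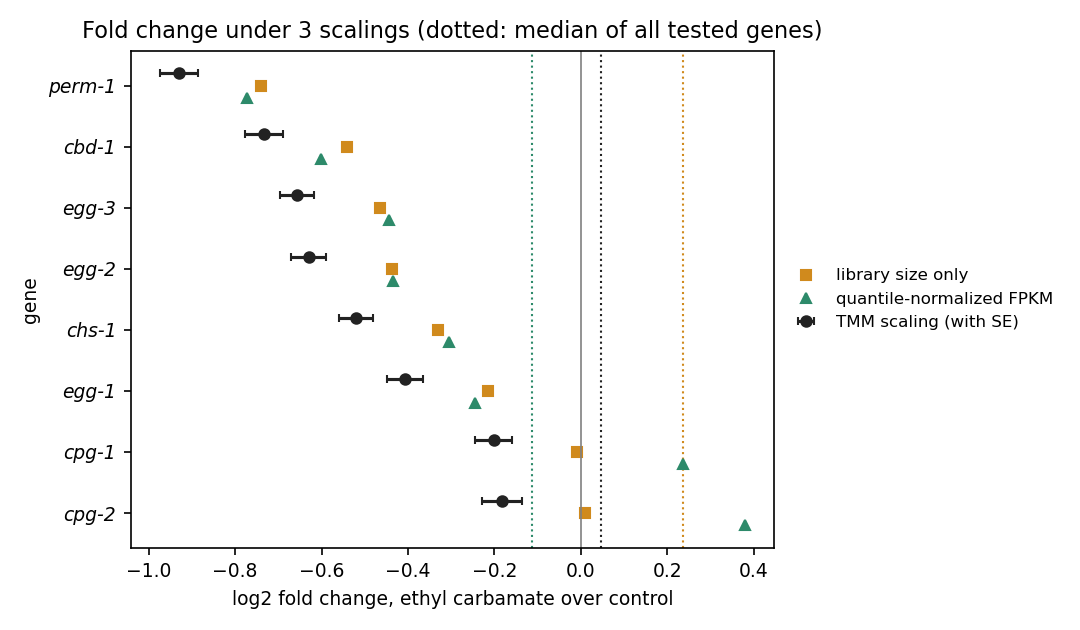
Log2 fold change of each gene, ethyl carbamate over control, under TMM scaling (circles, with standard error), scaling by library size alone (squares) and quantile-normalized FPKM (triangles). Dotted lines mark the median of all tested genes under each, at 0.05, 0.24 and −0.11. Under all 3 the order begins with perm-1 and cbd-1 and ends with cpg-1 and cpg-2, which lie next to 0 with scaling by library size and above 0 with quantiles.

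The order of levels per length was the same in both groups: cpg-2, cpg-1, cbd-1, egg-1, egg-2, egg-3, chs-1 and perm-1, with no overlap between neighbours within a group. With ethyl carbamate the levels ran from 1844 ± 27.2 FPKM for cpg-2 to 43.9 ± 2.40 FPKM for perm-1, and in controls from 2171 ± 144 FPKM for cpg-2 to 86.9 ± 2.75 FPKM for perm-1 (mean ± SD, n = 3 each). In the authors' deposited table all 8 log2 fold changes are below 0, from −0.98 for perm-1 to −0.23 for cpg-2.

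The fall was set beside that of genes of like abundance, since abundant genes were lower as a whole. Among the 3110 tested genes with a log2 CPM (counts scaled to library size) of 6 to 8, the median log2 fold change was −0.25, the lower quartile −0.42, and 70.5% were called lower. Both members of this class, perm-1 at −0.93 and egg-3 at −0.66, lay below that quartile. Among the 600 genes at 8 to 10 the median was −0.38, the lower quartile −0.61 and 76.3% were called lower. Of the members here, egg-2 at −0.63 lay just below the quartile, and chs-1 at −0.52 and egg-1 at −0.41 lay between the quartile and the median. Among the 90 genes above 10, where 86.7% were called lower, the median was −0.63 and the upper quartile −0.30. In that class cbd-1 at −0.73 was near the lower quartile, also −0.73, while cpg-1 and cpg-2 lay above the upper quartile.

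**Figure D3:**
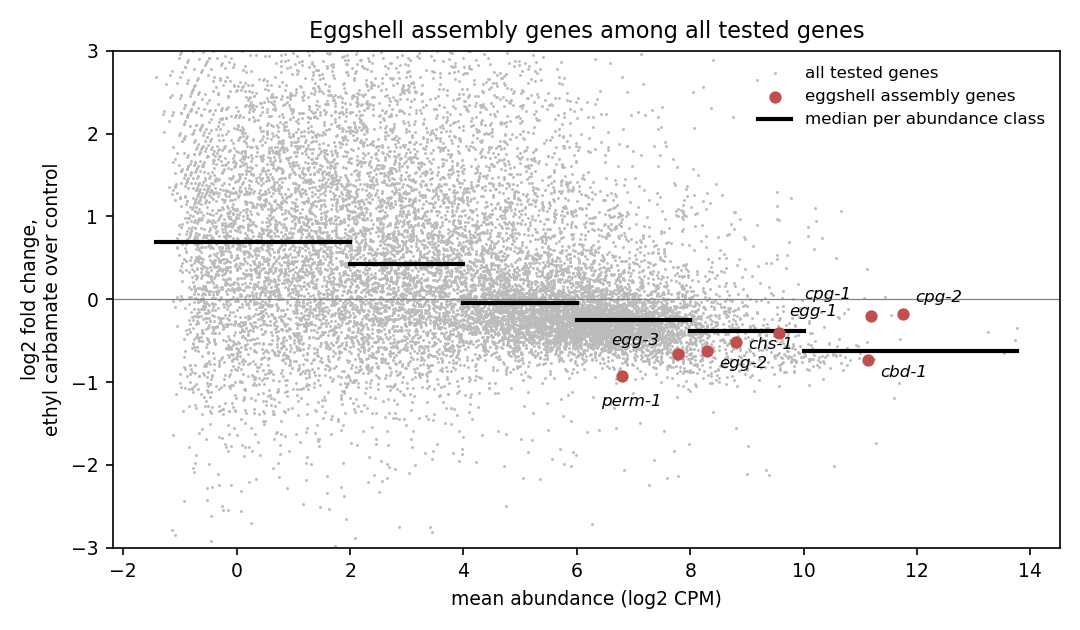
Log2 fold change against mean abundance (log2 CPM) for all tested genes (grey) and the 8 eggshell genes (red), with the median of each abundance class as a black line; 432 genes beyond 3 in either direction are not drawn. The class medians step down from 0.69 to −0.63 with abundance, and cpg-1 and cpg-2 lie above the line of their class while perm-1 lies below its own.

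Levels were also expressed relative to the 10 oocyte markers in the same library, a comparison added after the data had been seen and unaffected by any single scaling factor per library. Each gene's FPKM was divided by the geometric mean of the markers. The ratio for perm-1 was 0.196, 0.207 and 0.220 with ethyl carbamate, against 0.282, 0.282 and 0.298 in controls, a log2 difference of −0.47. For cbd-1 it was 1.90, 1.87 and 1.86 with ethyl carbamate, against 2.27, 2.28 and 2.23 in controls, a difference of −0.27. Neither gene's exposed libraries reached its controls on this scale. The differences for egg-3 and egg-2 were −0.19 and −0.17, again with no overlap between groups. The markers' own log2 fold changes ranged from −0.62 for lin-41 to −0.25 for mei-1. Those of egg-1 (−0.41) and chs-1 (−0.52) lay inside this range, and those of egg-2 (−0.63) and egg-3 (−0.66) just below it. Further below lay cbd-1 (−0.73) and perm-1 (−0.93), and above it cpg-1 (−0.20) and cpg-2 (−0.18). A single marker could thus stand about as far from the marker mean as egg-2 and egg-3 did.

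The proteoglycan genes moved the other way on this scale. The ratio for cpg-2 was 8.73, 8.84 and 8.56 with ethyl carbamate, against 7.31, 7.201 and 6.99 in controls, a log2 difference of 0.28. For cpg-1 it was 5.31, 5.31 and 5.31 with ethyl carbamate, against 4.44, 4.48 and 4.37 in controls, a difference of 0.26. For egg-1 the difference was 0.06, small but with separate groups. For chs-1 it was −0.06 and the groups overlapped (exact two-sided permutation test, p = 0.2, adjusted p = 0.2). For the other 7 genes the exact p was 0.1, the smallest possible, and 0.114 after adjustment over the 8 genes. With the 10 germ cell markers in place of the oocyte markers, chs-1 changed sign to 0.05. The other 7 kept theirs, but egg-2 shrank to −0.06, egg-3 to −0.09 and cbd-1 to −0.16, while egg-1 stood at 0.16.

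**Figure D4:**
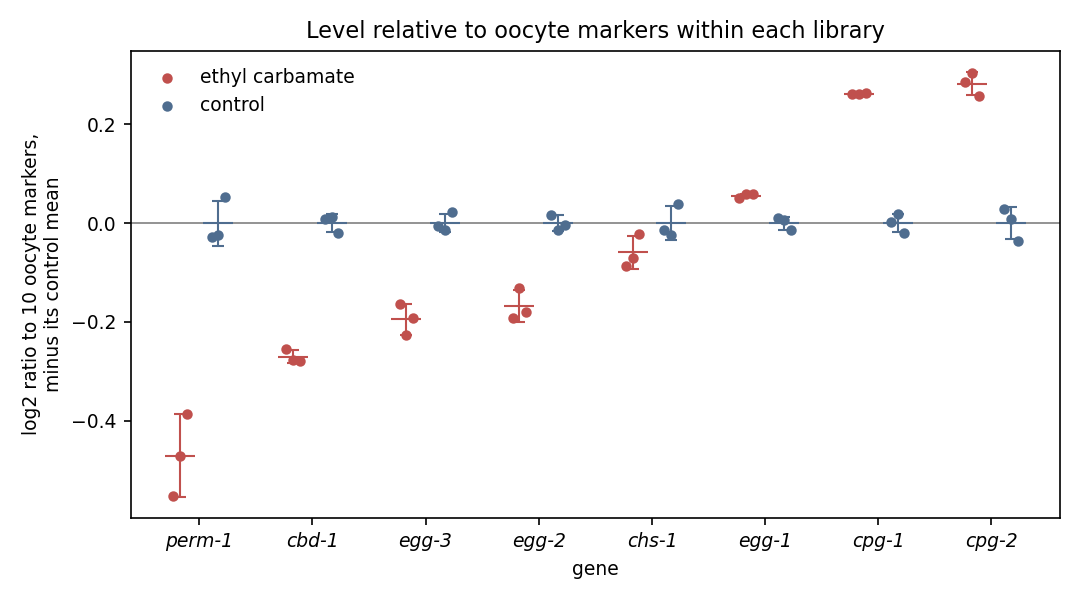
Log2 ratio of each gene's FPKM to the geometric mean of 10 oocyte markers in the same library, less the control mean of that ratio, with ethyl carbamate left and control right. Points are libraries and bars the mean ± SD of 3. Exposed libraries lie below the controls for perm-1, cbd-1, egg-3 and egg-2, overlap them for chs-1, and lie above them for egg-1, cpg-1 and cpg-2.

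Other genes of the eggshell were taken from 6 lists by role, of which 32 of 34 genes were in the table and 31 were tested. Of these 23 were lower, 3 were higher and 5 were not called, with a median log2 fold change of −0.48 (all tested genes: 36.3% lower, 40.0% higher, median 0.05). By abundance, 14 of 16 list genes with a log2 CPM of 6 to 8 were lower, where 70.5% of all genes were, and 4 of 7 at 8 to 10, where 76.3% were. Neither of the 2 list genes above 10 was lower, in a class with 86.7% lower. Below 6, 5 of 6 list genes were lower, where 41.2% of all genes at 4 to 6 were, and a smaller share below 4. The share of list genes that were lower was thus above that of all genes up to 8, and under it from 8 upward. Chosen after their values were seen, perm-2 and perm-4, which act with cbd-1 in the vitelline layer, were not called lower. The level of perm-2 was 1943, 1895 and 1837 FPKM with ethyl carbamate, against 2005, 1881 and 1740 FPKM in controls, and that of perm-4 was 1612, 1627 and 1566 FPKM with ethyl carbamate, against 1764, 1701 and 1475 FPKM in controls. The groups overlapped for both, and the log2 fold changes were 0.07 for perm-2 and 0.01 for perm-4 (edgeR adjusted p = 0.201 for perm-2 and 0.820 for perm-4), both called higher when scaled by library size alone (0.26 and 0.21), by quantiles (0.62 and 0.54) or among genes with FPKM of at least 5 (0.17 and 0.12). Within libraries the ratio of perm-1 to perm-2 was 0.0233 ± 0.00192 with ethyl carbamate and 0.0465 ± 0.00305 in controls (SD, n = 3 each), with no overlap. The mean log2 ratio was −5.43 with ethyl carbamate and −4.43 in controls, a difference that was not tested because the pair was picked for it. The third gene of this list, perm-5, was lower at −0.39.

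The egg activation partners of egg-3 were mixed. The gene egg-5 was lower, by −0.53 ± 0.04 in log2 (SE; edgeR adjusted p = 4.69e-10). Its near-identical paralog egg-4, at 69.6, 66.8 and 70.1 FPKM with ethyl carbamate and 76.1, 72.4 and 72.6 FPKM in controls, was not called (−0.04, edgeR adjusted p = 0.278), and neither was the kinase gene mbk-2 (−0.01, edgeR adjusted p = 0.864). Both were called higher when scaled by library size alone (0.15 for egg-4 and 0.18 for mbk-2) or by quantiles (0.14 and 0.20), as was mbk-2 among genes with FPKM of at least 5 (0.10). In the other direction, egg-4 was called lower by limma on log2(FPKM + 0.5) (−0.10, adjusted p = 0.0385). Reads that match both egg-4 and egg-5 may have been split between them in a way the sources used here do not give.

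Genes that make the sugar precursor of chitin, UDP-N-acetylglucosamine, fell together with chs-1, with 5 of 6 lower and a median log2 fold change of −0.74; the same 5 were lower with scaling by library size and with quantiles. These were the mutase gene pgm-3 (−0.86), C36A4.4 (−0.82), the glutamine-fructose-6-phosphate aminotransferase genes gfat-1 (−0.78) and gfat-2 (−0.69), which open the pathway, and the acetyltransferase gene gna-2 (−0.55). The gene pgm-3 had 87.3, 83.5 and 87.0 FPKM with ethyl carbamate, against 173, 160 and 155 FPKM in controls (edgeR adjusted p = 8.82e-14). The gene gna-1, at 7.70 ± 0.0247 FPKM with ethyl carbamate and 8.18 ± 1.16 FPKM in controls (SD, n = 3 each), was not called (−0.03, edgeR adjusted p = 0.875). Its log2 fold change was 0.16 with scaling by library size, not called, and −0.54 on quantile-normalized FPKM, called lower.

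All 9 tested genes of chondroitin chain synthesis were lower, with a median of −0.50, against 36.3% of all tested genes. At log2 CPM 4 to 6, 6 to 8 and 8 to 10, where these 9 lie, 41.2%, 70.5% and 76.3% of all genes were lower. With scaling by library size 7 of 9 were lower, and with quantile normalization 8 of 9, none being higher. The largest falls were in sqv-6, whose product starts the chain on the protein (−0.86), sqv-1 (−0.68) and sqv-4, which makes UDP-glucuronic acid (−0.52). Of the further cpg genes, 5 of 7 were in the table and 4 were tested. All 4 were lower, at −0.77 for cpg-9, −0.67 for cpg-4, −0.28 for cpg-3 and −0.15 for cpg-8, though cpg-8 changed sign with scaling by library size (0.04) and cpg-3 and cpg-8 with quantile normalization (0.02 and 0.03).

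Genes for lipids of the permeability barrier split evenly, with 3 higher and 3 lower. The cytochrome P450 genes cyp-31A3 and cyp-31A2, whose near-identical sequences make their split uncertain, were lower at −0.78 and −0.48, and the acyltransferase gene dgtr-1 at −0.59. The fatty acid synthase gene fasn-1 had 42.2, 40.5 and 41.4 FPKM with ethyl carbamate, against 20.6, 19.4 and 19.7 FPKM in controls, a log2 fold change of 1.11 (edgeR adjusted p = 3.01e-16). Smaller rises were called for emb-8 (0.17), the P450 reductase gene, and pod-2 (0.12), the acetyl-CoA carboxylase gene, the second of which was not called with median-ratio scaling, DESeq2 or limma on log2 FPKM. These 3 genes are also used outside the germline, and whole-animal RNA does not separate the sources. The same limit holds for the list genes that were lower, among them those of precursor and chondroitin synthesis.

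**Figure D5:**
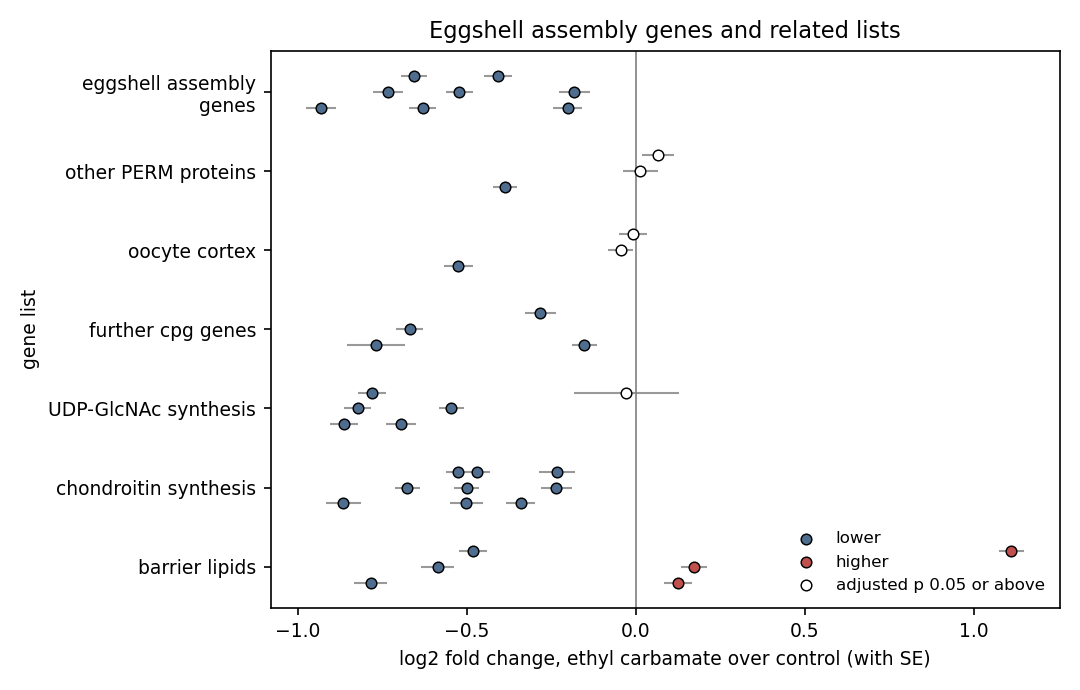
Log2 fold change with standard error for the 8 eggshell genes and the tested genes of the 6 lists, coloured by the call under TMM scaling. Chondroitin synthesis genes, and precursor genes other than gna-1, lie left of 0 with the eggshell genes. The precursor gene gna-1 lies near 0 at −0.03, and fasn-1 stands alone at 1.11. The genes perm-2, perm-4, egg-4 and mbk-2 also lie near 0 (right of it, and called higher, with scaling by library size or by quantiles).

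The genes whose profile over the 6 libraries was nearest to the median profile of the 8, among 6204 genes with a symbol and a mean of at least 5 FPKM, were rib-2, pyk-1, rfc-2, npp-15 and lotr-1. Their root-mean-square difference from it was 0.00998 to 0.0187 on the log2 scale, and their log2 fold changes lay between −0.59 and −0.55. The measure says only that these values ran alike in 6 libraries that form 2 groups.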

How the data were processed

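Poly(A)-selected RNA of whole worms was sequenced in 6 libraries, per the labels' protocols. The submitters' processing notes list HISAT2 (2.0.5), StringTie (1.3.3), featureCounts (1.5.0-p3) and DESeq2 (1.20.0); the design text names DEGSeq. Nothing in the labels or headers states the genome build, the strand setting or how multiply matching reads were counted. Per the file headers, the authors deposited raw read counts per gene, those counts divided by a size factor (a normalized signal), FPKM, and their own log2 fold changes and p-values. The authors' log2 fold changes are quoted once and their p-values are not used.

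Counts were tested in edgeR 4.0.16 under R 4.3.3, with TMM scaling, filterByExpr and a two-sided quasi-likelihood test without covariates. It covered 14705 genes, and 7246 listed genes had too few reads. Each SE was derived from the log2 fold change and its F value. Ratios used the deposited FPKM without a pseudocount. Named genes are the 8; in each list, up to 3 called genes with the greatest change among those reaching 5 FPKM in either group, and all genes where a count was 5 or fewer; and the 5 nearest profiles. The genes and lists were chosen with earlier results of these data known. P-values measure the spread between these libraries. Symbols came from RefSeq. Coordinates are the deposited ones; starts lie within 37 bases and ends within 235 bases of the Ensembl 115 annotation of WBcel235, the source of exon and residue numbers. Alternatives used DESeq2 1.42.0 and limma 3.58.1, exact tests scipy 1.17.1, and scripts were tested on simulated data.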

Additional observations from a re-analysis of the deposited data

How the results depend on the processing

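All 8 genes were called lower in each of 6 fits that left out 1 library, with DESeq2, with median-ratio scaling, with no filter on low counts, at a threshold of 0.01 and on log2 FPKM with pseudocounts of 0.1, 0.5 and 1. The log2 FPKM fits carry the authors' size factors, so their scaling is not independent of that of DESeq2. Among genes with FPKM of at least 5, and with scaling by library size, 6 were called; cpg-1 and cpg-2 were not, and cpg-2 turned to 0.0104 with scaling by library size. On quantile-normalized FPKM 6 were lower and 2 higher, cpg-1 at 0.24 and cpg-2 at 0.38. The cause was not tested. Leaving out 1 library, log2 fold changes ran from −0.98 to −0.90 for perm-1 and from −0.23 to −0.14 for cpg-2. Over all genes, 5344 were lower and 5876 higher, against 3409 lower and 7215 higher with scaling by library size. Higher genes of the 6 lists numbered 3, and 7 with scaling by library size, 6 among genes with FPKM of at least 5 and 7 with quantiles. The ratio of chs-1 to germ cell markers turned to 0.0467. Replicate numbers did not pair the libraries: deviations of same-numbered libraries correlated at −0.0121 to −0.0042. With the replicate number as a block 8 genes were lower, and 5345 of all genes. Depth was no limit for these genes, which held 1551 to 75769 reads per library.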

Other observations

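Other genes that carry the protein domains named for the eggshell genes in the deposited table moved in both directions. The table gives the label CBM_14, a chitin-binding domain, to 8 genes, 3 of them cbd-1, cpg-1 and cpg-2. Of the other 5, R02F2.4 (log2 fold change −0.57) and C39D10.7 (−0.34) were lower, pqn-74 (2.47) and the chitinase gene cht-1 (1.00) were higher, and ule-1 (0.02, edgeR adjusted p = 0.651) was not called, though it was called higher with scaling by library size (0.22). The label Ldl_recept_a, the repeat of egg-1 and egg-2, stands on 16 genes. Of the 13 other tested ones, 2 were lower, the yolk receptor gene rme-2 (−0.61) and gldi-2 (−0.52), and 10 were higher, up to 2.95 for F44E2.4. Of all tested genes 40.0% were higher. Most of the 10 had a log2 CPM under 4, where the median log2 fold change was 0.69 (up to 2) and 0.43 (2 to 4). By contrast, rme-2 and gldi-2 were at 10.1 and 8.75. Of the 10, lrp-2 (−0.21) and F32E10.8 (0.39) were not called with quantile normalization, nor F32E10.8 with DESeq2. The remaining gene, F58H1.7, was not called (0.26), but was called higher with scaling by library size (0.45) and among genes with FPKM of at least 5 (0.37), and lower with quantiles (−0.29). These genes were looked up after the results were known.

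The genes that lie next to the 8 on the chromosome gave no common direction. Of 16 nearest neighbours 11 were tested, 5 were lower, 2 higher and 4 not called, with a median log2 fold change of −0.12. With scaling by library size the split was 3 lower and 5 higher with a median of 0.08, wrm-1 and atf-7 losing their call and T25G3.1, F44F4.3 and ins-17 gaining one. With quantiles 2 of 9 were lower and 1, atf-7, was higher, and odd-1 was not called with DESeq2 or quantiles. Between egg-1 and the overlapping B0244.9 on the other strand 275 bases are shared, and B0244.9 averaged 0.0491 FPKM with ethyl carbamate and was listed at 0 in controls.

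Proportions among oocyte surface paralogs were examined after their values were seen. The FPKM ratio of egg-5 to egg-4 was 0.867, 0.902 and 0.879 with ethyl carbamate, against 1.28, 1.19 and 1.22 in controls, and that of egg-3 to egg-5 was 1.59, 1.496 and 1.52 with ethyl carbamate, against 1.63, 1.73 and 1.68 in controls. Neither was tested.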
